A study of Homo sapiens with 8 samples.

Results

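The 10 genes described here, BCL2, BCL2L1, BCL2L2, MCL1, BAK1, BCL2L11, BID, BAD, BIK and BMF, are survival and death members of the BCL2 family, chosen by name from the 19305 transcript accessions that each library lists. All 10 had enough counts to be tested, among 14565 genes tested in all. Polyadenylated RNA had been sequenced in 8 libraries from 2 human cell lines, 2 libraries in each of 4 groups, in a study of the nuclear cap-binding complex, stress-resistant protein synthesis and stem cells. HEK293T cells, a line from embryonic kidney, all received sodium arsenite, which causes oxidative stress, with either eIF2A siRNA or a control siRNA. H9 cells, a human embryonic stem cell line, carried either eIF2A shRNA or a control shRNA, and no arsenite is named for them. EIF2A encodes a translation initiation factor that can carry initiator tRNA to the ribosome and is a different protein from the alpha subunit of eIF2. No HEK293T group without arsenite is analysed here, so line, stressor and the means of knockdown cannot be told apart between the lines. Each group is 1 cell line with 2 numbered sets, and the labels do not say that the sets were separate cultures. The p-values therefore cover the spread between these samples alone, and that spread may be technical.

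The BCL2 family sets whether the outer mitochondrial membrane stays intact. BCL2, BCL2L1 (BCL-XL), BCL2L2 (BCL-W) and MCL1 hold back cell death, BAK1 and its relative BAX form the pores that release cytochrome c, and the BH3-only proteins BCL2L11 (BIM), BID, BAD, BIK and BMF bind the survival proteins or activate the pore formers. Human embryonic stem cells are known for a low threshold to mitochondrial cell death. HEK293T cells carry adenovirus early-region genes, of which one encodes a viral relative of BCL2, and the large T antigen, which binds p53, and neither viral transcript is analysed here.

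Gene counts per library ranged from 21837052 to 32318668. The HEK293T controls differed more between themselves than the libraries of the other groups, with a chi-square per degree of freedom of 4.91 against 1.35 to 1.8. The fit shares its estimate of the spread over all groups, so SE and p-values of the HEK293T comparisons may be too small. EIF2A had 17.5 and 18.3 CPM (gene counts scaled to a common library size) in the HEK293T controls, and siRNA lowered it to 5.58 and 5.98 CPM. It had 15.8 and 14.8 CPM in the H9 controls, and shRNA lowered it to 5.03 and 4.67 CPM. The knockdown thus left 32.2% of the control level in HEK293T and 31.7% in H9, a log2 fold change of -1.63 ± 0.095 (SE) and -1.66 ± 0.11, with edgeR adjusted p = 6.6e-15 and 2.3e-15. With the trend over transcript GC content and length described below removed, these values were -1.68 in HEK293T and -2.28 in H9. The cell lines matched their labels: 8 pluripotency markers summed to 5410 to 5800 CPM in H9 and to 136 to 151 CPM in HEK293T, where NANOG, DPPA4 and L1TD1 were at 0 in every library. In H9, POU5F1 had 162 and 195 CPM with control shRNA and 141 and 114 CPM with eIF2A shRNA, NANOG at 52 and 50.7 against 48.1 and 50 CPM, and SOX2 at 86.5 and 80.6 against 114 and 118 CPM. Markers of differentiated lineages summed to 30.6 and 32.1 CPM in the H9 controls and to 20.6 and 20.1 CPM with shRNA. Most of it was KRT7 (25.6 and 26.1 against 16.7 and 16 CPM), followed by SOX1 (4.52 and 5.48 against 2.74 and 3.48 CPM). GATA3, GATA4, GATA6 and PAX6 had at most 3 counts in a control library and at most 8 with shRNA. TBXT, EOMES, SOX17 and CDX2 had at most 6 counts in any H9 library. Genes listed as fibroblast markers summed to 1010 and 1010 against 879 and 891 CPM, and here the listed genes went different ways. THY1 made up most of the sum and was lower with shRNA (788 and 794 against 592 and 594 CPM). The sum thus mainly follows THY1 and is not a measure of fibroblasts. COL1A1 (88.7 and 87.7 against 118 and 124 CPM), COL1A2 (96.1 and 97.8 against 132 and 138 CPM) and PDGFRB (33.3 and 33.1 against 35.7 and 34.7 CPM) were higher. DCN and LUM had at most 3 counts in any H9 library, COL3A1 at most 7 and POSTN at most 9. Whether differentiated cells or fibroblasts were present, and their part in the results, was not tested. In bulk RNA, fewer cells of a type and less RNA per cell cannot be told apart.

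Levels are given as RPKM, the CPM divided by the transcript length in kilobases, and are comparable between genes as far as the transcript lengths used are the expressed ones. In the HEK293T controls under arsenite, the death side led: BAD, a sensitizer held in check by survival kinases, was first with 55.8 and 53.4 RPKM, and BAK1 was second with 52.1 and 51.1 RPKM. BCL2L1 followed with 24.3 and 25.7 RPKM, MCL1, a short-lived survival protein, with 17.8 and 18.9 RPKM, and BID, which caspase 8 cleaves into its active form, with 17.4 and 15.0 RPKM. BCL2L11, a strong activator, stood at 6.33 and 6.01 RPKM and BCL2L2 at 3.65 and 3.77 RPKM. The last places fell to BIK, a BH3-only protein of the endoplasmic reticulum, with 2.38 and 2.67 RPKM, BMF, which is tied to the cytoskeleton, with 1.97 and 2.14 RPKM, and BCL2 with 0.216 and 0.253 RPKM. The 2 control libraries of each gene in this order did not overlap with those of the next gene. The first place of BAD rests on division by its short transcript. In mean CPM, BAD (63.1) stood below BAK1 (110), MCL1 (72.2) and BCL2L1 (65.3).

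In the H9 controls BCL2L1 was the leading member, with 82.8 and 85.6 RPKM. BAK1 came next with 80 and 81.0 RPKM, then BAD with 53.8 and 54.3, BID with 31.2 and 31.4, and MCL1 with 20.7 and 20.5 RPKM. In mean CPM, BAD (62.5) stood below BID (78.2) and MCL1 (80.9) here. BMF stood at 6.72 and 6.56 RPKM and BCL2L2 at 5.17 and 4.86 RPKM. BIK, with 3.47 and 2.54 RPKM, and BCL2L11, with 2.5 and 2.63 RPKM, overlapped, and BCL2 was again last with 0.144 and 0.205 RPKM. BCL2 and BIK rest on few reads, 23 to 60 counts per library for BCL2 and 46 to 81 for BIK.

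**Figure D1:**
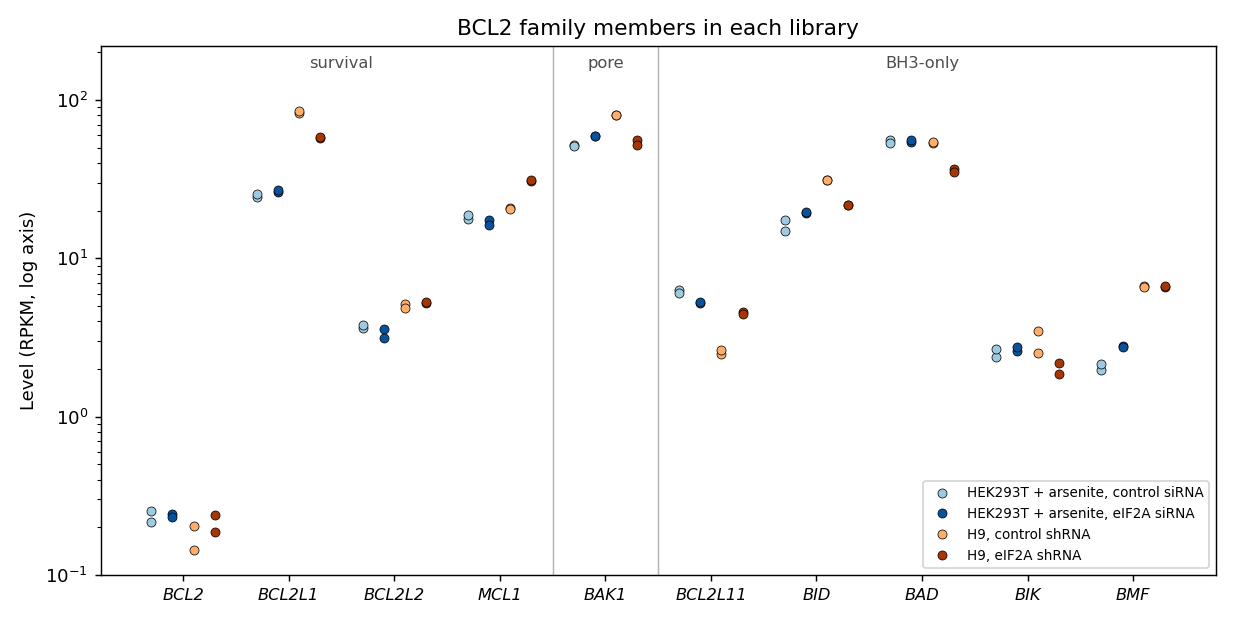
Level of each of the 10 members in RPKM, on a log axis, in the 8 libraries. Each point is 1 library, colours mark the 4 groups, and grey lines separate survival members, the pore former BAK1 and the BH3-only members. BCL2L1 is near 25 RPKM in HEK293T and above 80 RPKM in the H9 controls, and BCL2 is the lowest member in every library.

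The lines were set side by side through their controls, H9 control shRNA against HEK293T control siRNA under arsenite. Of the 10 members, 6 were higher in H9, 1 was lower and 3 did not pass the test, in a comparison that called 83.5% of all genes tested (42.3% higher and 41.2% lower). The count is near this background and says nothing particular about the family. The libraries did not overlap for 8 of the 10 members, where 90.3% of all genes had no overlap. With the trend over transcript GC content and length described below removed, 6 members were higher and 2 lower, where 83.9% of all genes were called (43.3% higher and 40.7% lower). Under upper-quartile scaling 5 were higher and 3 lower, and of all genes 5418 were higher and 6908 lower. BCL2L1 was 3.36-fold higher in H9 (log2 difference 1.75 ± 0.04 SE, edgeR adjusted p = 9.2e-30) and BMF 3.22-fold higher (1.69 ± 0.077, adjusted p = 1.2e-20). BID was 1.95-fold, BAK1 1.56-fold and BCL2L2 1.35-fold higher. MCL1 was 1.12-fold higher (log2 difference 0.16 ± 0.047, edgeR adjusted p = 0.0023), but under upper-quartile scaling this was 0 (adjusted p = 0.96). That scaling moves the median of all genes in this comparison to -0.16. BCL2L11 went the other way and stood in H9 at 41.6% of the HEK293T level (log2 difference -1.26 ± 0.073, edgeR adjusted p = 1.1e-17). BCL2, BAD and BIK did not pass the test, with log2 differences of -0.45 ± 0.26, -0.01 ± 0.048 and 0.25 ± 0.2. BAD passed it as lower in H9 under upper-quartile scaling (-0.17, edgeR adjusted p = 0.0019) and after removal of that trend (-0.16, adjusted p = 0.0026), and BCL2 as lower under upper-quartile scaling (-0.6, adjusted p = 0.031).

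The balance among the 10 members was described by the share of the 4 survival members in the summed RPKM of all 10, a value with no test. It leaves out death relatives described below, such as BAX, BOK, BBC3 and PMAIP1. Mean BAX was 95.5 RPKM in the HEK293T controls and 138 RPKM in the H9 controls, above every member, and mean BOK was 0.928 and 41.8 RPKM. A share that counts these relatives was not computed, so the values below hold for the 10 members alone. The share was 25.3 and 27.2% in the HEK293T controls and 38.0 and 38.4% in the H9 controls, so the libraries of the lines did not overlap. BCL2L1 differed by more than the whole share did, with 13.4 and 14.4% of the sum in the HEK293T controls and 28.9 and 29.6% in the H9 controls. BAD held 30.7 and 29.8% of the sum in the former and 18.8 and 18.7% in the latter. BAK1 held like parts in both, 28.6 and 28.5% against 27.9 and 28%.

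With eIF2A siRNA the survival share in HEK293T was 24.9 and 24.2%, a mean of 24.6 ± 0.5% against 26.2 ± 1.4% in the controls (SD, n = 2). The summed level of the 10 members was 192 and 192 RPKM with siRNA and 182 and 179 RPKM in the controls. With eIF2A shRNA the survival share in H9 was 42.4 and 43.8%, a mean of 43.1 ± 0.95% against 38.2 ± 0.29% (SD, n = 2), while the summed level was 221 and 218 RPKM against 287 and 290 RPKM. MCL1 went from 7.22 and 7.07% of the sum in the H9 controls to 13.9 and 14.5%, and BCL2L1 went from 28.9 and 29.6% to 26.0 and 26.8%. The higher share in H9 thus came with a smaller sum on both sides: the survival members summed to 109 and 111 RPKM in the controls and 93.9 and 95.2 RPKM with shRNA, and the BH3-only members to 97.7 and 97.5 against 71.3 and 70.1 RPKM. Without MCL1 the share was 33.4% in the H9 controls and 33.7% with shRNA. With the GC and length trend divided out, a choice made after the data were seen, the means were 39.4% in the controls and 39.9% with shRNA.

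**Figure D2:**
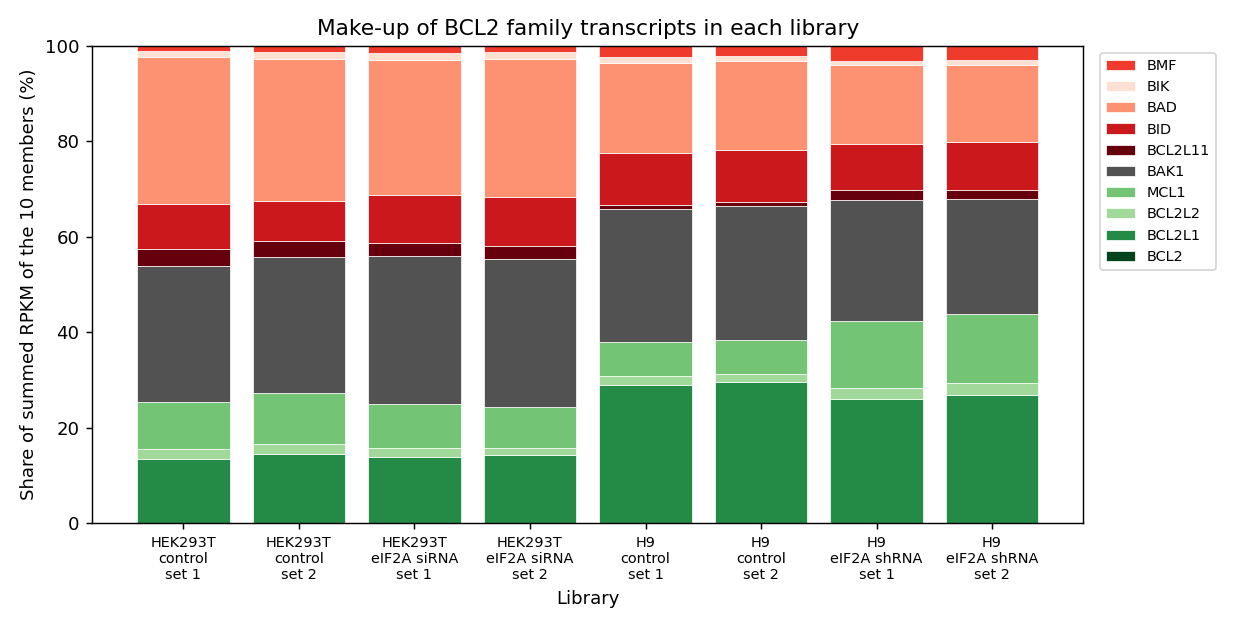
Make-up of the summed RPKM of the 10 members in each of the 8 libraries, in percent. Green parts are survival members, grey is BAK1 and red parts are BH3-only members; the green parts reach 24.2 to 27.2% in the HEK293T libraries and 38.0 to 43.8% in the H9 libraries.

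In HEK293T under arsenite, eIF2A siRNA moved the members by little. BAK1, BID and BMF rose and MCL1 and BCL2L11 fell, 5 of 10 members called where the comparison called 28.7% of all genes (14.1% higher and 14.7% lower). The median log2 fold change was 0.04 over the members and 0 over all genes. The knockdown libraries lay wholly above both controls for 4 members and wholly below for 3, which is 7 of 10 where 58.8% of all genes had no overlap. The same 5 members passed with the trend over transcript GC content and length removed, where 27.4% of all genes were called (13.6% higher and 13.8% lower).

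Among the survival members in HEK293T, MCL1 stood at 17.8 and 18.9 RPKM in the controls and at 17.6 and 16.2 RPKM with siRNA. The groups did not overlap, but one library of each lay close to the other group. The log2 fold change was -0.12 ± 0.046 (edgeR adjusted p = 0.045), and this call did not hold widely: adjusted p was 0.13 with DESeq2, 0.1 with the 4 HEK293T libraries alone, 0.35 without the set 2 control, 0.52 without the set 2 siRNA library and 0.067 to 0.076 without any 1 of the H9 libraries. BCL2L1 stood at 24.3 and 25.7 RPKM in the controls and 26.3 and 27.0 RPKM with siRNA, a log2 fold change of 0.09 ± 0.043 that did not pass the test (edgeR adjusted p = 0.13); it passed without the set 2 control (0.13, adjusted p = 0.04). BCL2L2, at 3.65 and 3.77 against 3.58 and 3.14 RPKM, and BCL2, at 0.216 and 0.253 against 0.241 and 0.232 RPKM, did not pass it either, with log2 fold changes of -0.14 ± 0.086 and 0 ± 0.22. BCL2L2 shares sequence with a readthrough transcript into PABPN1, so its counts are less certain.

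BAK1, the pore former, stood at 52.1 and 51.1 RPKM in the HEK293T controls and at 59.7 and 59.7 RPKM with siRNA. Both siRNA libraries were above both controls, by 1.16-fold (log2 fold change 0.21 ± 0.039, edgeR adjusted p = 5.7e-05). BAK1 has processed pseudogenes, and reads shared with them could be lost from its count.

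The BH3-only members split in HEK293T. BMF stood at 1.97 and 2.14 RPKM in the controls and 2.79 and 2.77 RPKM with siRNA, 1.34-fold higher (log2 fold change 0.43 ± 0.086, edgeR adjusted p = 0.00019). BID stood at 17.4 and 15.0 RPKM in the controls and 19.3 and 19.6 RPKM with siRNA, 1.21-fold higher (0.28 ± 0.055, adjusted p = 0.00017). In both genes the groups were apart, and the controls of BID differed more between themselves than its siRNA libraries. BCL2L11 stood at 6.33 and 6.01 RPKM in the controls and 5.23 and 5.27 RPKM with siRNA, which is 85.3% of the control level (-0.23 ± 0.06, edgeR adjusted p = 0.0033). BAD, at 55.8 and 53.4 against 54.3 and 55.6 RPKM, and BIK, at 2.38 and 2.67 against 2.60 and 2.76 RPKM, overlapped between the groups and did not pass the test (log2 fold changes 0.01 ± 0.046 and 0.07 ± 0.19).

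In H9, eIF2A shRNA went with larger differences. MCL1 and BCL2L11 rose and BCL2L1, BAK1, BID, BAD and BIK fell, 7 of 10 members called where the comparison called 71.3% of all genes (37.0% higher and 34.3% lower), a share near the background. The median log2 fold change was -0.26 over the members and 0.02 over all genes. The shRNA libraries lay wholly above both controls for 3 members and wholly below for 5, which is 8 of 10 where 84.9% of all genes had no overlap. DESeq2's size factors move the median of all genes in H9 from 0.02 to -0.13 and upper-quartile scaling to 0.09, and under the former BMF passed the test as lower (-0.15, edgeR adjusted p = 0.03).

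The H9 differences also followed the GC content of the transcripts. The median log2 fold change was 0.85 over the 4533 genes under 45% GC, 0.31 from 45 to 50%, -0.12 from 50 to 55%, -0.32 from 55 to 60% and -0.4 over the 2684 genes at 60% or more. Reads without a counted feature also differed with the shRNA, at 18.84 and 18.39% in the H9 controls and 20.84 and 20.63% with shRNA. They differed in HEK293T too, at 15.59 and 17.68% in the controls and 14.98 and 14.95% with siRNA. Their part in the results was not tested in either line. In HEK293T the medians by GC content ran from 0.03 to -0.07. The Spearman correlation of log2 fold change with GC content across 14489 genes, which are not independent replicates and share the libraries, was -0.67 in H9 and -0.1 in HEK293T. Whether this trend arose in the cells or in the libraries was not tested, so the H9 results of the members are given as measured and with the trend over GC content and length removed from each library. With the trend removed the H9 comparison called 49.9% of all genes (24.5% higher and 25.4% lower), and 4 of the 10 members: BCL2L11 higher, and BCL2L1, BAK1 and BID lower. The median over the members was then -0.04, and 0.01 over all genes.

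**Figure D3:**
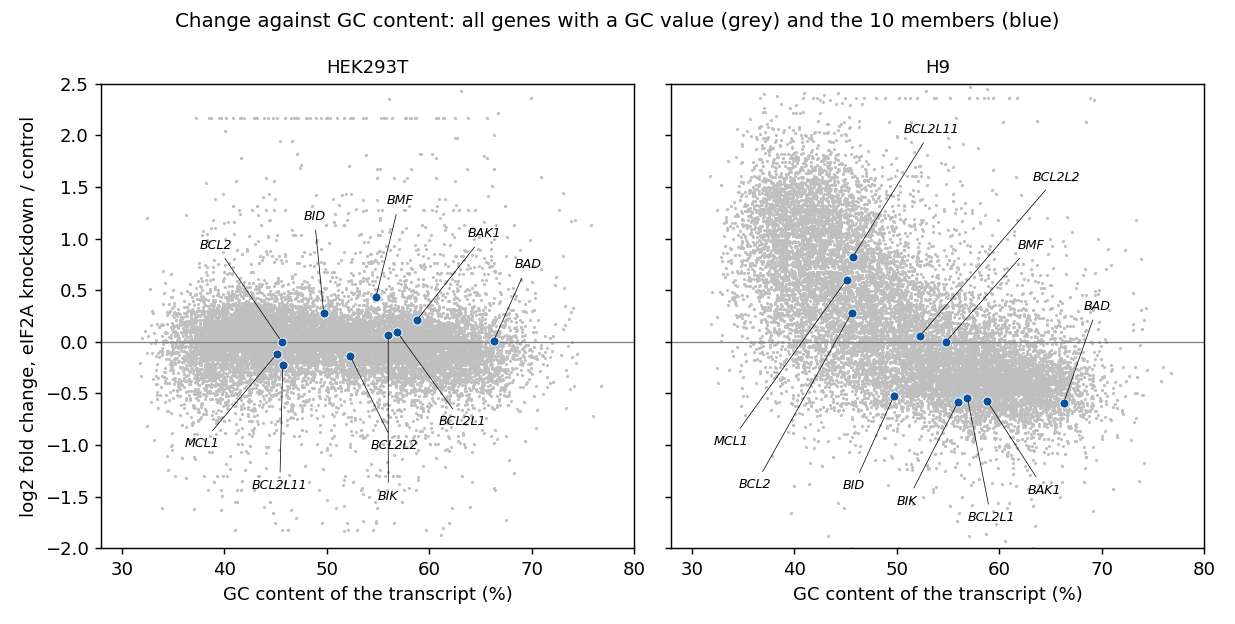
Log2 fold change of eIF2A knockdown against the GC content of the transcript, in HEK293T (left) and H9 (right). Grey points are all genes with a GC value and blue points the 10 members; 176 genes in HEK293T and 106 in H9 lie outside the plotted range, and rows of grey points at 1 height are genes with very few counts. The H9 cloud falls from left to right, and BID (-0.53) lies below the median of the genes with 45 to 50% GC (0.31).

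Among the survival members in H9, BCL2L1 (transcript of 56.9% GC) stood at 82.8 and 85.6 RPKM in the controls and at 57.6 and 58.2 RPKM with shRNA. Both shRNA libraries were far below both controls, at 68.8% of the control level (log2 fold change -0.54 ± 0.037, edgeR adjusted p = 6.5e-15). With the trend removed the fall was smaller, -0.23 ± 0.036 (edgeR adjusted p = 1.4e-06). MCL1 (45.1% GC) stood at 20.7 and 20.5 RPKM in the controls and 30.9 and 31.5 RPKM with shRNA, 1.52-fold higher (0.60 ± 0.045, edgeR adjusted p = 6.2e-14). With the trend removed, MCL1 no longer passed the test (0.05 ± 0.044, edgeR adjusted p = 0.32). MCL1 thus stood above BID in the shRNA libraries and below it in the controls. BCL2L2, at 5.17 and 4.86 against 5.22 and 5.27 RPKM, and BCL2, at 0.144 and 0.205 against 0.187 and 0.239 RPKM, did not pass the test (log2 fold changes 0.06 ± 0.082 and 0.28 ± 0.27). The value of BCL2L2 was 0.08 with the trend removed, and the value of BCL2 turned to -0.42 with the trend removed, again without passing (edgeR adjusted p = 0.22). BCL2L1, MCL1 and BCL2L11 each make splice forms, some with the opposite effect on survival, and counts per gene do not separate them.

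BAK1 (58.8% GC) stood at 80 and 81.0 RPKM in the H9 controls and at 56.2 and 52.3 RPKM with shRNA, 67.4% of the control level (log2 fold change -0.57 ± 0.039, edgeR adjusted p = 6e-15). The groups were far apart. With the trend removed the fall was -0.16 ± 0.038 (edgeR adjusted p = 0.00056).

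Of the BH3-only members in H9, BCL2L11 (45.7% GC) stood at 2.5 and 2.63 RPKM in the controls and at 4.56 and 4.47 RPKM with shRNA. It was 1.76-fold higher, with a gap between the groups much wider than the spread within them (log2 fold change 0.82 ± 0.078, edgeR adjusted p = 1.9e-11). With the trend removed the rise was 0.23 ± 0.078 (edgeR adjusted p = 0.015). BID (49.7% GC) stood at 31.2 and 31.4 RPKM in the controls and 21.6 and 21.7 RPKM with shRNA, 69% of the control level. Its fall was as large with the trend removed as without, -0.57 ± 0.053 (edgeR adjusted p = 3.9e-11) against -0.53 ± 0.053 (adjusted p = 4.3e-11).

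BAD (66.3% GC) stood at 53.8 and 54.3 RPKM in the H9 controls and at 36.6 and 35.0 RPKM with shRNA, 66.3% of the control level (log2 fold change -0.59 ± 0.051, edgeR adjusted p = 2.1e-12), and with the trend removed at -0.01 ± 0.05 (adjusted p = 0.88). BIK (56% GC) stood at 3.47 and 2.54 RPKM in the controls and 1.87 and 2.18 RPKM with shRNA (-0.58 ± 0.21, edgeR adjusted p = 0.016). The groups of BIK did not overlap, but its call was lost without the set 1 control (-0.33, edgeR adjusted p = 0.29), without the set 1 shRNA library (-0.47, adjusted p = 0.12) and with the trend removed (-0.07, adjusted p = 0.82). BMF, at 6.72 and 6.56 against 6.64 and 6.70 RPKM, had overlapping groups and a log2 fold change of 0 ± 0.064, or 0.05 with the trend removed.

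**Figure D4:**
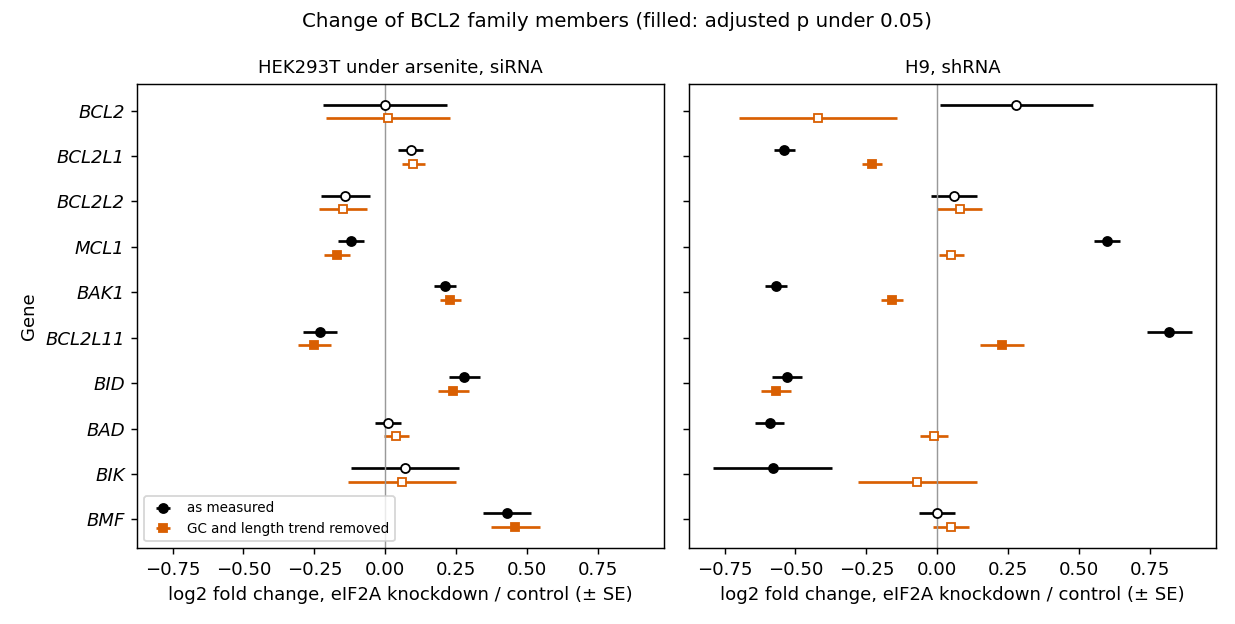
Log2 fold change ± SE of each member with eIF2A knockdown in HEK293T (left) and H9 (right), as measured (black circles) and with the trend over transcript GC content and length removed (orange squares); filled symbols passed the test at an adjusted p under 0.05. In H9 the orange symbols of MCL1, BAD and BIK lie near 0, while those of BID overlap the black ones.

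The promoter of BCL2L11 is shown because FOXO3, a transcription factor known to act on this gene, was among the partners examined, and BCL2L11 rose in H9 while it fell in HEK293T. In the RefSeq table for GRCh38.p14, the 250 bases before the gene's start lie on the plus strand at chr2:111120664-111120913, upstream of the first exon, with 76.8% GC. Capitals mark GTAAACA, a forkhead core motif chosen after the values were seen, whose first base lies 223 bases before the start.

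BCL2L11 promoter: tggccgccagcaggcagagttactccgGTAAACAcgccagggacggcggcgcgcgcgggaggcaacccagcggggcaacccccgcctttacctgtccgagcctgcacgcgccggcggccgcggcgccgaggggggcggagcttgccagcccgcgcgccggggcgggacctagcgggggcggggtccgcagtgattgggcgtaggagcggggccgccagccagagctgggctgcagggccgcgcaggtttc

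The motif was searched on both strands, as GTAAACA and TGTTTAC, in windows from 250 bases before to 50 bases after each start. It was present in 1 of the 14 windows (7.14%) of the 7 members with an entry (BAD, BAK1, BCL2, BCL2L1, BCL2L11, BID and BMF) and in 1202 of 35116 windows of all genes (3.42%). By gene it was present in 1 of 7 members and in 1145 of 27305 genes. The only member with it was BCL2L11, and the motif was chosen after the values were seen, so nothing is concluded from these shares. A match of these letters is a description of the sequence and not a binding site. FOXO3 stood at 1.74 and 1.70 RPKM in the HEK293T controls and 1.66 and 1.69 RPKM with siRNA, and at 0.730 and 0.773 RPKM in the H9 controls and 2.05 and 1.97 RPKM with shRNA. In H9 its log2 fold change was 1.42 ± 0.11 (edgeR adjusted p = 6.2e-14) and 1 with the trend removed (adjusted p = 1.2e-09). Whether FOXO3 acted on BCL2L11 in these cells was not tested, and the activity of FOXO3 was not measured.

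Whether the knockdown contrast itself differed between the lines was tested as H9 minus HEK293T. It differed for 8 of 10 members, 2 with a more positive and 6 with a more negative contrast in H9, where 58.1% of all genes differed (31.1% more positive and 27.0% more negative). BCL2L11 had the largest difference, 1.05 ± 0.098 (edgeR adjusted p = 3.8e-11), since it rose in H9 and fell in HEK293T. BID (-0.81 ± 0.076) and BAK1 (-0.78 ± 0.055) fell in H9 and rose in HEK293T. MCL1 differed by 0.72 ± 0.065, BCL2L1 by -0.63 ± 0.057 and BAD by -0.6 ± 0.069. BMF differed by -0.42 ± 0.11 (edgeR adjusted p = 0.00093), with a rise in HEK293T and a value near 0 in H9. BIK was at the edge of the test (-0.65 ± 0.29, edgeR adjusted p = 0.049), and BCL2 (0.29 ± 0.35) and BCL2L2 (0.21 ± 0.12) did not pass it, although BCL2L2 did under upper-quartile scaling (0.29, adjusted p = 0.037), which gave 3 more positive and 5 more negative contrasts among the members and 5025 and 3325 among all genes.

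With the trend over GC content and length removed, 6 of 10 members differed between the lines, 2 more positive and 4 more negative in H9, where 42.7% of all genes did (21.1% more positive and 21.6% more negative). BID kept its size (-0.8, edgeR adjusted p = 1.2e-10), as did BMF (-0.41, adjusted p = 0.0019). BCL2L11 differed by 0.48 (edgeR adjusted p = 0.00015), BAK1 by -0.39 (adjusted p = 2.4e-07), BCL2L1 by -0.34 (adjusted p = 5.9e-06) and MCL1 by 0.22 (adjusted p = 0.0039). BAD (-0.05, edgeR adjusted p = 0.59) and BIK (-0.13, adjusted p = 0.76) no longer passed. The contrasts of EIF2A itself differed by -0.02 (edgeR adjusted p = 0.94) as measured and by -0.6 (adjusted p = 0.0013) with the trend removed.

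Other relatives of the family gave 8 tested genes of 11 listed; BCL2A1, BCL2L10 and BCL2L15, with at most 11 counts in a library, were not tested. In HEK293T 3 of the 8 passed the test, where 28.7% of all genes did: BAX, BBC3 and BCL2L13, which rose; the median over the list was 0.16 on the log2 scale and 0 over all genes. BAX, the other pore former, stood at 97.3 and 93.7 RPKM in the controls and 112 and 111 RPKM with siRNA (log2 fold change 0.23 ± 0.042, edgeR adjusted p = 7.4e-05). BBC3 (PUMA), a BH3-only target of p53, stood at 8.34 and 8 against 10.1 and 11.3 RPKM (0.39 ± 0.075, edgeR adjusted p = 1e-04). BCL2L13, a mitochondrial outer membrane protein, rose by 0.13 ± 0.044 (edgeR adjusted p = 0.02), a call lost with DESeq2 (adjusted p = 0.099) and without the set 1 control, the set 1 siRNA library or the set 2 siRNA library (adjusted p = 0.069, 0.051 and 0.14).

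In H9, BBC3 and PMAIP1 rose and BAX, BOK and BCL2L12 fell, 5 of 8 where 71.3% of all genes were called, with a median of -0.12. BCL2L12 had a log2 fold change of -0.66 as measured and -0.21 with the trend removed. PMAIP1 (NOXA), the BH3-only partner of MCL1, stood at 9.91 and 9.45 RPKM in the controls and 17.8 and 18.9 RPKM with shRNA (log2 fold change 0.92 ± 0.072, edgeR adjusted p = 1.3e-13), and at 0.31 with the trend removed. BBC3 stood at 11.5 and 11.5 against 16.0 and 15.6 RPKM (0.46 ± 0.072, edgeR adjusted p = 7.5e-07), and at 0.86 with the trend removed. BAX stood at 130 and 146 RPKM in the controls and 125 and 121 RPKM with shRNA (-0.17 ± 0.042, edgeR adjusted p = 0.00058), but its direction turned to 0.35 with the trend removed (adjusted p = 3.1e-09), and it did not pass without the set 2 control (-0.08, adjusted p = 0.13). BOK, a further pore-forming relative, stood at 41.1 and 42.5 against 24.0 and 23.4 RPKM (-0.82 ± 0.052, edgeR adjusted p = 6.2e-16), and at -0.44 with the trend removed. BOK was at 1.16 RPKM or less in every HEK293T library.

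Downstream, of 12 tested genes of the apoptosome, the caspases and their inhibitors, 1 passed the test in HEK293T, where 28.7% of all genes did. It was AIFM1, a mitochondrial flavoprotein, which rose (0.16 ± 0.041, edgeR adjusted p = 0.002). In H9, 6 rose and 6 fell, 12 of 12 where 71.3% of all genes were called, with a median log2 fold change of 0.05. Removing the trend left 2 that rose and 3 that fell, where 49.9% of all genes were called, a share near the background. XIAP, an inhibitor of caspases, stood at 0.727 and 0.546 RPKM in the H9 controls and 1.70 and 2.08 RPKM with shRNA (1.56 ± 0.12, edgeR adjusted p = 3.6e-13; 0.51 with the trend removed). CASP9, the initiator in the apoptosome, fell in H9 (-0.56 ± 0.054, edgeR adjusted p = 2.9e-11; -0.24 with the trend removed).

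Of 16 regulators and partners of the members, 6 rose and 3 fell in HEK293T, where 28.7% of all genes were called, and 6 rose and 9 fell in H9, where 71.3% were. In H9 2 rose and 6 fell with the trend removed, near the 49.9% of all genes. CASP8, the protease that cleaves BID, stood at 1.80 and 1.73 RPKM in the HEK293T controls and 3.03 and 2.87 RPKM with siRNA (log2 fold change 0.75 ± 0.12, edgeR adjusted p = 5.8e-06). MTCH2, the mitochondrial receptor of BID, stood at 67.3 and 63.6 against 79.9 and 83.7 RPKM there (0.32 ± 0.036, edgeR adjusted p = 1.3e-08). In H9, CASP8 had a log2 fold change of 0.62 as measured and 0.01 with the trend removed, and MTCH2 of -0.32 and -0.89. BAG3, a co-chaperone that binds BCL2, fell in HEK293T (-0.35 ± 0.038, edgeR adjusted p = 9.5e-09). In H9, USP9X, a deubiquitinase that stabilizes MCL1, stood at 2.58 and 2.34 RPKM in the controls and 7.79 and 7.87 RPKM with shRNA (1.67 ± 0.054, edgeR adjusted p = 2.3e-23; 0.57 with the trend removed). HUWE1, a ubiquitin ligase that marks MCL1 for degradation, rose by 0.44 ± 0.033 as measured (edgeR adjusted p = 6.2e-14), but stood at -0.01 with the trend removed.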

How the data were processed

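Polyadenylated RNA was extracted with TRIzol and made into TruSeq Stranded mRNA libraries, per the labels' protocols. The submitters' processing notes name cutadapt, STAR 2.5.2b and hg19. The deposited files hold the authors' raw counts per RefSeq transcript accession. Which counter, strand setting and annotation version were used is not given in the sources used here, and overlapping antisense genes may share counts. Reads with no feature made up 14.95 to 20.84% of a library and entered neither library sizes nor tests, like multiply aligned reads (4.11 to 4.54%).

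Gene counts per library were 21837052 to 32318668, and counting precision is poorest for BCL2 and BIK. Counts were kept by filterByExpr, scaled with TMM and fitted in edgeR 4.0.16 (R 4.3.3) with 4 group means over 8 libraries (4 residual degrees of freedom). Two-sided quasi-likelihood p-values were adjusted by the Benjamini-Hochberg method over 14565 genes and called under 0.05. SE was taken from the F statistic. The fit was tested on simulated data with few genes changed and no GC trend, so that test does not bear on the trend seen in H9. RPKM, computed here, used TMM-scaled library sizes and GENCODE v29 transcript lengths, matched by accession for 18545 and by gene for 521 of 19305 accessions. Symbols came from RefSeq (18888) and GENCODE (223) tables. Trend removal fitted each library's deviation on GC content and log2 length (mgcv 1.9.3) and entered it as an offset. TMM was then retaken, a step set after the first centring had left calls in H9 lopsided.

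The members and gene lists were chosen with earlier results of these data known. Genes named were EIF2A, the 10 members, all tested relatives, and up to 4 called genes with the smallest p per further list and comparison, of which some are not reported here. FOXO3 with its HEK293T levels and the promoter motif were picked after values were seen. Alternatives were 2 other scalings, 2 other filters, DESeq2 1.42.0, limma-voom (limma 3.58.1), the 4 libraries of a line, a block for the set number, leaving out each library, an adjusted p under 0.01, and the trend removed with and without the block.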

Additional observations from a re-analysis of the deposited data

Results flagged for a closer look

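The knockdown contrast differed between the lines, by the test of the difference itself (edgeR, H9 minus HEK293T), for 8 of the 10 members, where 58.1% of all genes differed. The log2 differences were 1.05 for BCL2L11, 0.72 for MCL1, -0.42 for BMF, -0.6 for BAD, -0.63 for BCL2L1, -0.65 for BIK, -0.78 for BAK1 and -0.81 for BID. BID and BMF kept their size with the trend over GC content and length removed (-0.8 and -0.41), and BAD and BIK did not (-0.05 and -0.13). Line, arsenite and the means of knockdown cannot be told apart in these differences.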

How the results depend on the processing

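Removing the GC and length trend changed the counts in H9 most: members called went from 7 to 4, apoptosome and caspase genes from 12 to 5, and regulators from 15 to 8 (4, 5 and 7 with the replicate block as well), while calls over all genes went from 71.3 to 49.9%. Among the genes put through all alternatives, it also turned BCL2 (-0.42, or -0.41 with the block), BAX (0.35) and HUWE1 (-0.01) in H9. BCL2 turned in the difference between lines (-0.42, -0.43), and, between the controls, EIF2A (0.26, 0.34) and BIK (-0.01). Some genes outside that check turned in H9 as well. MARCHF5, a regulator, went from 0.32 (edgeR adjusted p = 0.0052) to -0.5 (adjusted p = 6.2e-05), and BAG3 from -0.19 to 0.12 (adjusted p = 0.13). Survival shares without division by length were 37.2 and 34.7% in HEK293T control and siRNA and 47.1 and 52.3% in H9 control and shRNA; without MCL1 they were 17.9, 17.3, 33.4 and 33.7%; with the trend divided out, 39.4 and 39.9% in H9. DESeq2 and its size factors turned BCL2L2 (-0.1), BMF (-0.15) and BCL2L13 (-0.1) in H9 and BAD between the controls (0.02). Upper-quartile scaling and the 5 CPM filter turned the difference of EIF2A (0.06, 0.03). BCL2 in HEK293T was 0 with no filter, with the block or with its 4 libraries alone, and 0.01 or, with the block, 0.02 with the trend removed.

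With 1 library left out, members called ranged from 4 to 5 in HEK293T and from 6 to 7 in H9. Values near 0 changed sign: in HEK293T BCL2 (-0.09 to 0.13), BAD (-0.02 to 0.04) and BOK (-0.32 to 0.34); in H9 BMF (-0.01 to 0.02) and HRK (-0.19 to 0.02); the difference of EIF2A (-0.09 to 0.03); and BAD between the controls (-0.04 to 0.02). BCL2L14 in HEK293T, with at most 1 count in a library, ranged from 0 to 2.98. The difference of BIK between the lines lost its call in most alternatives (adjusted p up to 0.76).

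The sets are not shown to pair libraries: the deviations of same-numbered libraries correlated at -0.02 in HEK293T and 0 in H9. With the replicate block, members called were 4 in HEK293T (MCL1 lost, adjusted p = 0.079), 7 in H9 and 7 in the difference between lines (BIK lost, adjusted p = 0.054). Depth limits BCL2 and BIK.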
